A study of Mus musculus with 35 samples.

Results

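The genes described here code for the proteins of the cytosolic ribosome of the mouse. They are the protein-coding genes whose symbol begins with Rpl or Rps followed by a digit, with Rplp0, Rplp1, Rplp2 and Rpsa, and without the Rps6k kinases and pseudogenes. The rule gave 89 of 21631 protein-coding genes on chromosomes 1 to 19 and X of the GRCm38 annotation: 31 of the small subunit, 43 of the large subunit, 3 of the stalk, and 12 paralogues, retrogenes and genes that share the symbol. No measured value entered the rule.

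The series followed the acetylation of lysine 27 of histone H3 (H3K27ac), which sits on active promoters and enhancers, and the binding of the transcription factor KLF4 while fibroblasts were reprogrammed to pluripotency. All libraries were labelled C57BL/6 x 129. Mouse embryonic fibroblasts (MEF, genotype OKSM Col1a1/M2rtTA ROSA26) carried a doxycycline-inducible cassette of Oct4, Klf4, Sox2 and Myc at Col1a1 and the transactivator at Rosa26, and were grown unsorted in MEF medium without doxycycline. Cells of the same genotype were taken on day 3 (unsorted), day 6 and day 9 (both sorted, labelled SSEA+) of culture in ESC medium that held doxycycline at 1 µg/ml and ascorbic acid at 50 µg/ml, where the cassette is itself a source of KLF4. Embryonic stem cells (ESC) were the V6.5 line, with no such cassette, grown unsorted on irradiated feeder cells in serum and LIF, and a further ESC group (2i) also received 1 µM MEK inhibitor and 3 µM GSK3 inhibitor. H3K27ac was measured in 2 MEF, 3 day 3, 3 day 6, 2 day 9 and 2 ESC libraries, and KLF4 in 2 libraries per stage from day 3 onwards, 2i included. Neither H3K27ac in 2i nor KLF4 in MEF was analysed here. The labels do not say whether libraries of a group came from separate cultures, so each p-value measures only the spread between these libraries.

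A cytosolic ribosome holds a small subunit, which reads the messenger RNA, and a large subunit, which joins the amino acids and carries the stalk proteins that call in the translation factors. The proteins are made in matched amounts in nearly all cells, and their genes are short, strongly transcribed and start within a run of pyrimidines called a TCT initiator. Several have a paralogue on another chromosome that is used in few tissues: Rpl10l, for instance, is an intronless copy of the X-linked Rpl10 that is known from the testis.

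The promoter letters of 6 members are shown, because they span the behaviours described below. Each is 300 bases of RefSeq sequence (GRCm38.p6), 250 before the annotated start and 50 from it, written 5′ to 3′ on the gene's strand. Capitals mark matches to any of 5 motifs searched: GGGNGTGG (KLF), GGGCGG (SP), CCGGAA (ETS) and AAGATGGC (YY1) on either strand, and CTTT followed by a pair of pyrimidines within 20 bases of the start on the sense strand (TCT), which can overlap an ETS match. Rps19, of the small subunit, and Rpl10, of the large subunit, had a KLF4 peak within 1 kb of the start in all 10 KLF4 libraries.
Rps19: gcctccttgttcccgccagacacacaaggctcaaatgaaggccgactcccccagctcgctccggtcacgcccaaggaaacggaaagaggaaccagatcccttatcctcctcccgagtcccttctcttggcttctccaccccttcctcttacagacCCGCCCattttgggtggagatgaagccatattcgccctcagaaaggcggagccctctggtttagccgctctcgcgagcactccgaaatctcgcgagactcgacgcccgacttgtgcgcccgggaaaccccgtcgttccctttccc
Rpl10: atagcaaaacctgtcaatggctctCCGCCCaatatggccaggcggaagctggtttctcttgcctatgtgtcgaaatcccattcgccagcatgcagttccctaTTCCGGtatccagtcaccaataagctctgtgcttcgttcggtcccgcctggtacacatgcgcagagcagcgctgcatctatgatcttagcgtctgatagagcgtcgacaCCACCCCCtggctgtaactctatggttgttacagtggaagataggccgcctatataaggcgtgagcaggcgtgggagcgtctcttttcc
They lie at chr7:24884342-24884641 on the plus strand and chrX:74270566-74270865 on the plus strand. The Rps19 window held an SP match and the Rpl10 window a KLF, an SP and an ETS match. Rps27 and Rps4x, both of the small subunit, had no KLF4 peak in any library.
Rps27: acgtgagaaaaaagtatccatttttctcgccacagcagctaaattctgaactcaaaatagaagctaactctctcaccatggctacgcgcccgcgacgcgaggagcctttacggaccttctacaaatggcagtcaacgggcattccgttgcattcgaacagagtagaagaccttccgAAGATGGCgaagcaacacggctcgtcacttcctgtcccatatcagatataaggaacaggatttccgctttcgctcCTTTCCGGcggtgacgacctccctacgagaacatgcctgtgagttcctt
Rps4x: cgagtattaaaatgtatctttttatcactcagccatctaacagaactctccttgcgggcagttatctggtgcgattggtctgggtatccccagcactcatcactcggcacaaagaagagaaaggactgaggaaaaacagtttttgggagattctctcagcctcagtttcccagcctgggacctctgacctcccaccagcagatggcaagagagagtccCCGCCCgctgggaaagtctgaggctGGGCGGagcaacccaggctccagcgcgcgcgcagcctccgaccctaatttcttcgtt
These lie at chr3:90213599-90213898 and chrX:102189342-102189641, both on the minus strand. Rps27 held a YY1 match and a TCT match that runs into an ETS match at the start, and Rps4x held 2 SP matches. The paralogues Rpl10l and Rpl39l had an H3K27ac peak in ESC and in no other stage.
Rpl10l: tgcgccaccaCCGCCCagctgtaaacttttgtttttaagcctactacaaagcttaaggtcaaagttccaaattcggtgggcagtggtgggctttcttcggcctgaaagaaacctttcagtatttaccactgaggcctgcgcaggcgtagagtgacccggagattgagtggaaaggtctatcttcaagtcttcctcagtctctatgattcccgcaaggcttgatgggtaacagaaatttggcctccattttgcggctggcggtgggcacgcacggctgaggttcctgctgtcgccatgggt
Rpl39l: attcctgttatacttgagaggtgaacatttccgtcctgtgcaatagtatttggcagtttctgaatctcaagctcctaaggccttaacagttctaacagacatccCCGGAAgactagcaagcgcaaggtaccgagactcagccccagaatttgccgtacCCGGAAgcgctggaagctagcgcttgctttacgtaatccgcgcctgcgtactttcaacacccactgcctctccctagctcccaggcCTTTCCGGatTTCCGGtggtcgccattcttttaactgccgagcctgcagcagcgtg
They lie at chr12:66284352-66284651 on the minus strand and chr16:10169978-10170277 on the plus strand. Rpl39l held 4 ETS matches and a TCT match, and Rpl10l a single SP match far from the start.

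Over the family, 69 members had a RefSeq promoter window, 10 of them more than 1, which gave 81 windows to set beside 21045 windows of all protein-coding genes. TCT letters stood in 27.2% of the members' windows and 5.93% of all windows, ETS letters in 45.7% and 18.9%, and YY1 letters in 9.88% and 3.07%. SP letters were in 58.0% of the members' windows and 46.7% of all, and the KLF letters, which KLF4 is known to prefer, in 18.5% and 19.6%. The median GC content was 58.0% in the members' windows and 56.7% in all. A match is a description of these letters and not a bound site.

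A gene was counted as marked when at least 1 base of a peak lay over it or within 2.5 kb to either side. H3K27ac lay on nearly every ribosomal protein gene at every stage. The number of marked members of 89 was 84 and 83 in the MEF libraries, 83, 83 and 82 on day 3, 80, 79 and 82 on day 6, 84 and 84 on day 9, and 87 and 87 in ESC. Among all genes the share marked ran from 46.6% of genes in the shortest day 6 list to 68.2% in ESC. A peak in all 12 libraries was found at 78 members, against 41.4% of all genes.

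**Figure D1:**
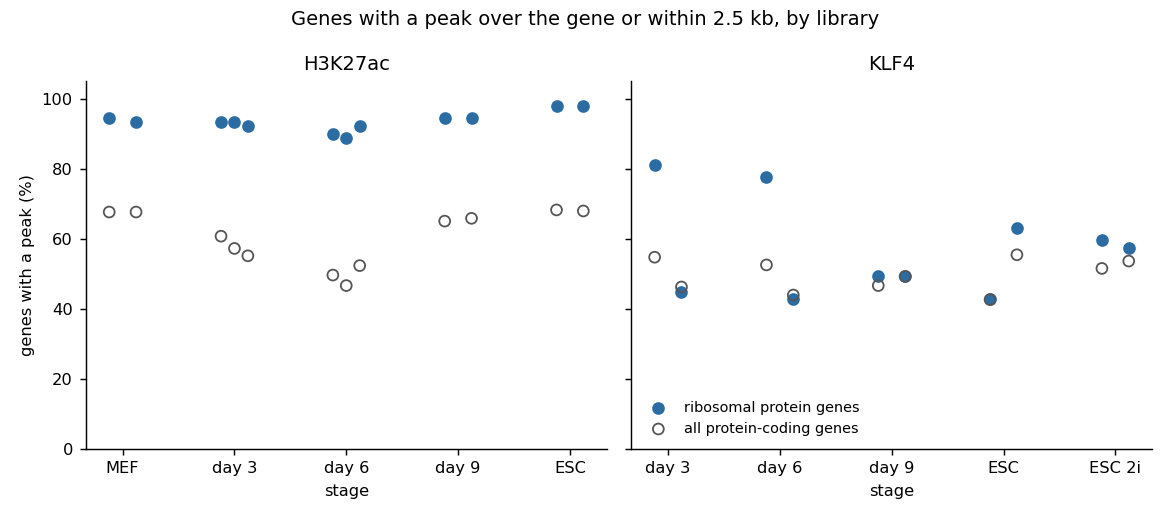
Share of genes with a peak (vertical axis, %) in each library, by stage, for the 89 ribosomal protein genes (filled) and all 21631 protein-coding genes (open); points are libraries. H3K27ac marked at least 88.8% of the members in every library, while KLF4 marked between 42.7% and 80.9% and split by library within day 3 and day 6.

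By stage, a peak in every library was found at 83 members in MEF (66.3% of all genes), 82 on day 3 (52.8%), 78 on day 6 (43.7%), 84 on day 9 (63.5%) and 87 in ESC (65.9%). All 3 stalk genes, 30 of 31 small subunit genes and 41 of 43 large subunit genes were marked in all 12 libraries, and 4 of the 12 paralogues and others were. The 3 core genes that missed a library, Rps4x, Rpl36a and Rpl39, are 3 of the 4 members on the X chromosome, and each missed it on day 6; this grouping was seen after the values were known. The fourth, Rpl10, was marked in all 12. The genes of mitochondrial ribosomal proteins, which serve a separate ribosome, were marked in all 12 libraries in 63 of 78 cases, the initiation and elongation factors in 32 of 33 and the ribosome assembly factors in 27 of 28. Fau and Rack1, which code for cytosolic ribosome proteins under other names, were marked in all 12.

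**Figure D2:**
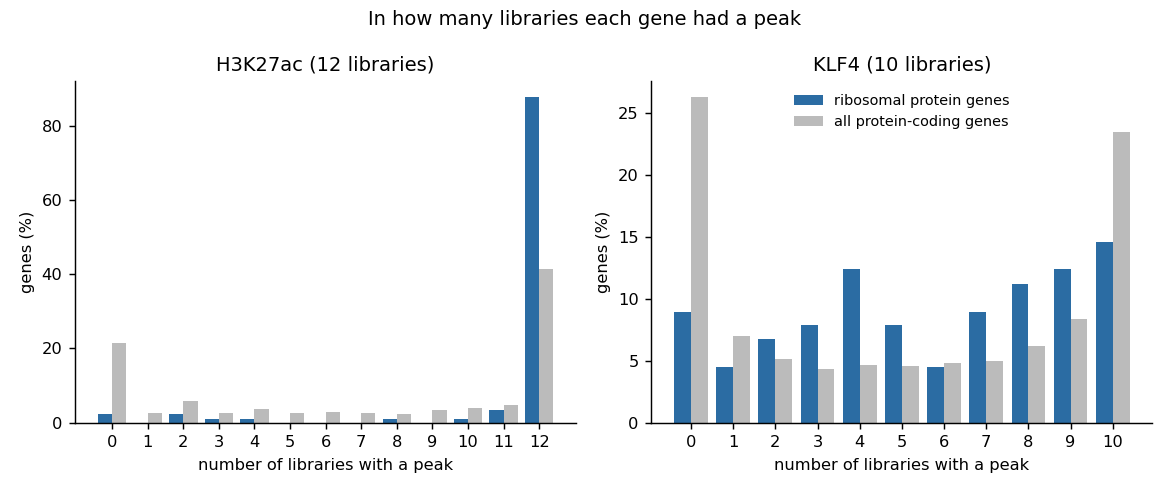
Number of libraries in which a gene had a peak (horizontal axis) against the share of genes (vertical axis, %), for ribosomal protein genes (blue) and all protein-coding genes (grey). For H3K27ac 87.6% of the members stand at 12 libraries; for KLF4 the members spread over the whole range, with 8.99% at 0 and 14.6% at 10.

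The lists themselves differed in length. They held 17493 to 88347 H3K27ac peaks, with the fewest on day 6 and the most in MEF, and 21129 to 34640 KLF4 peaks; the reads behind them were not given, so depth is unknown. Of 8 fibroblast markers fixed for the check, 8 had an H3K27ac peak in every MEF library, 8 in every day 3 library, 2 in every day 6 library, 4 in every day 9 library and 4 in every ESC library, whose cultures held feeder cells. Of 8 pluripotent cell markers 3 were marked in every MEF library, 0 in every day 6 library, 7 in every day 9 library and 8 in every ESC library. Each library is a bulk sample, so a mark held by fewer cells and a weaker mark in all cells cannot be told apart.

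Where the stages differed was in how far the mark reached. The bases of H3K27ac peaks inside a gene and its 2.5 kb flanks, here the covered length, are given for single libraries as called, before any scaling, unless scaling is named. The covered length had a median over marked members of 2296 and 2323 bp in MEF, 2069, 1676 and 1468 bp on day 3, 1127, 1031 and 1667 bp on day 6, 2912.5 and 3034.5 bp on day 9, and 4186 and 3993 bp in ESC. Over all marked genes the corresponding medians were 2433 and 2469 bp in MEF, 1611, 1322 and 1135 bp on day 3, 822, 782 and 1309 bp on day 6, 2075 and 2116.5 bp on day 9, and 1940 and 1821 bp in ESC. The members' median thus lay under that of all genes in both MEF libraries and above it in all 10 later ones. The ESC lists covered less of the genome (66.3 and 62.3 Mb) than the MEF lists (82.8 and 83.5 Mb). Divided by the scale factors used in the fits below, the members' medians were 1494 and 1484 bp in MEF, 1953, 1966 and 2035 bp on day 3, 2209, 2249 and 2044 bp on day 6, 2017 and 2069 bp on day 9, and 3226 and 3280 bp in ESC, so that MEF and not day 6 was lowest and ESC was highest on both scales. Before scaling, the order held inside each batch named in the labels: in batch DG-3458, day 6 lay lowest, then day 3, MEF and ESC, and in EA-3702 day 6 lay under day 3 and day 3 under day 9.

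The comparison of ESC with MEF sets the starting cells beside a pluripotent line that was not made from them. Genotype, medium and feeder cells differ along with the cell state, and these cannot be told apart. After each library was scaled to its median covered length over genes marked in all libraries, 66 of 87 tested members had a greater covered length in ESC and 0 a lesser one (limma, Benjamini-Hochberg adjusted p under 0.05 over 16464 genes). Among all genes tested 26.2% were greater and 27.5% lesser. The median log2 difference, on the scale of scaled covered bp plus 200, was 0.97 for the members and -0.01 for all genes; among the 8960 genes marked in all 12 libraries 25.2% were greater, 26.4% lesser and the median was -0.02. At an unadjusted p under 0.05, 70 members were greater and 0 lesser, against 28.4% and 30.1% of all genes. By role, 28 of 31 small subunit genes, 31 of 43 large subunit genes, 3 of 3 stalk genes and 4 of 10 tested paralogues and others rose, with medians of 1.19, 0.86, 1.12 and 0.80. In the last group, Rpl10l and Rpl39l passed the filter only through their ESC peaks, so their values carry no weight. Of the 78 members marked in all 12 libraries, 63 rose and 0 fell.

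**Figure D3:**
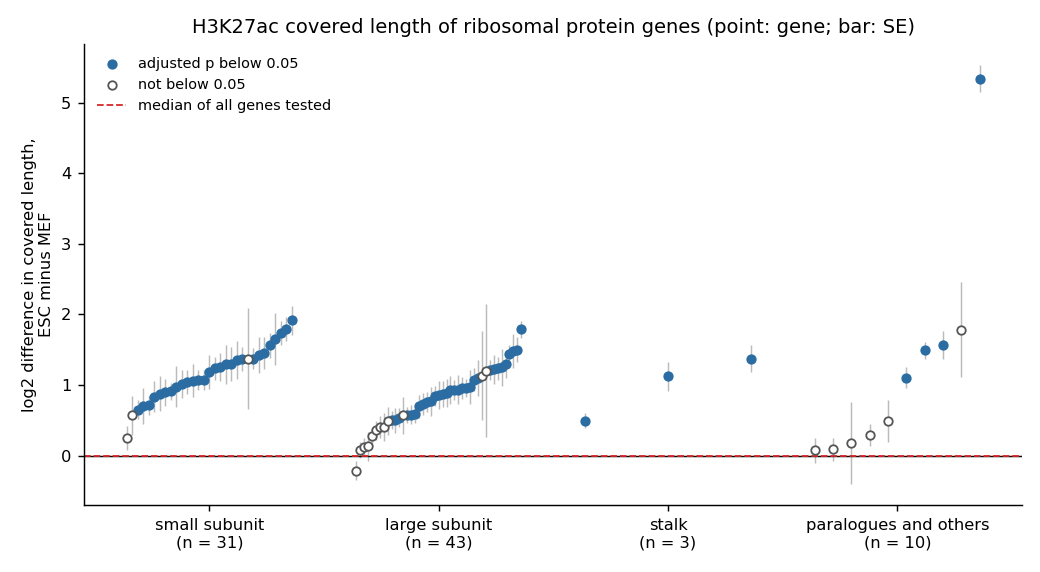
Log2 difference in H3K27ac covered length, ESC minus MEF (vertical axis), for each tested member by role; bars are SE, filled points passed the adjusted threshold and the dashed line is the median of all genes tested. Of the 87 points, 66 are filled and lie above 0, and Rps23rg1 stands highest at 5.34.

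Without any scaling the groups can be read directly. Both ESC libraries lay above both MEF libraries at 73 of 87 members and below both at 4, against 32.9% and 52.7% of all genes tested. The unscaled fit called 37 members greater and 0 lesser, against 19.0% and 30.6% of all genes. Both stages belong to batch DG-3458. In the scaled fit, 33 of the 41 members with no other protein-coding gene inside the window rose and 0 fell, beside the 26.2% and 27.5% of all genes in that fit. The other 48 members share their window with at least 1 other gene, and a peak there cannot be assigned to either gene.

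Among the core members with the greatest differences were Rps7 and Rps24 of the small subunit and Rpl23 of the large subunit. Rps7 was covered over 1799 and 1659 bp in MEF, 2041, 1692 and 1467 bp on day 3, 1057, 1393 and 2203 bp on day 6, 2789 and 3623 bp on day 9, and 5654 and 5343 bp in ESC, a log2 difference from MEF to ESC of 1.799 ± 0.17 (SE; limma adjusted p = 2.96e-05). Its day 9 libraries lay above all earlier ones before scaling, but not after it (1931 and 2471 bp on day 9, 2072, 3039 and 2701 bp on day 6), and its ESC libraries lay above all others on both scales. Rpl23 went from 2487 and 2816 bp in MEF to 6009 and 6264 bp on day 9 and 7927 and 8150 bp in ESC (1.79 ± 0.12, adjusted p = 2.97e-06), and no ESC value overlapped any other stage on either scale. Rps24 had 1630 and 1537 bp in MEF and 4679 and 5049 bp in ESC (1.74 ± 0.17, adjusted p = 3.48e-05).

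Rpsa, the laminin receptor protein of the small subunit, was covered over 3242 and 2945 bp in MEF and 6706 and 6360 bp in ESC (1.30 ± 0.24, adjusted p = 0.00176). The stalk genes rose too: Rplp0, the stalk base, from 2777 and 2905 bp to 3516 and 3180 bp (0.49 ± 0.11, adjusted p = 0.0037), Rplp1 from 1936 and 2056 bp to 3839 and 3790 bp (1.12 ± 0.21, adjusted p = 0.00192), and Rplp2 from 2051 and 1940 bp to 5040 and 4160 bp (1.37 ± 0.19, adjusted p = 0.000315). In all 4 genes the ESC libraries lay above the MEF libraries before and after scaling. The 1 member of the 87 with a negative difference was Rpl41, the shortest protein of the large subunit, at -0.21 ± 0.13 (adjusted p = 0.213), with 4299 and 4280 bp in MEF and 3183 and 2768 bp in ESC.

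Most of the added length, as called, lay downstream of the start. For the 69 members with an annotated start, the mean length under H3K27ac in the 2.5 kb upstream of it was 811 ± 9.55 bp in MEF and 938 ± 74.8 bp in ESC (SD over 2 libraries each). In the first 2.5 kb downstream it was 1260 ± 3.54 bp in MEF and 1950 ± 47.1 bp in ESC, and between 2.5 and 5 kb downstream 113 ± 0.283 bp and 664 ± 30.5 bp. For the genes marked in all 12 libraries with a start, the same 3 stretches held 896, 1180 and 186 bp in MEF and 766, 977 and 198 bp in ESC. At 2 kb into the gene, 7.98% of members were under a peak in MEF, 5.32% on day 3, 2.42% on day 6, 39.1% on day 9 and 58.7% in ESC. For the genes marked in all libraries these shares were 14.0%, 7.26%, 3.37%, 13.1% and 11.3%. At 3 kb the members' shares were 1.45% in MEF, 10.9% on day 9 and 31.9% in ESC, and for the genes marked in all libraries 8.2% in MEF and 8.21% in ESC.

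**Figure D4:**
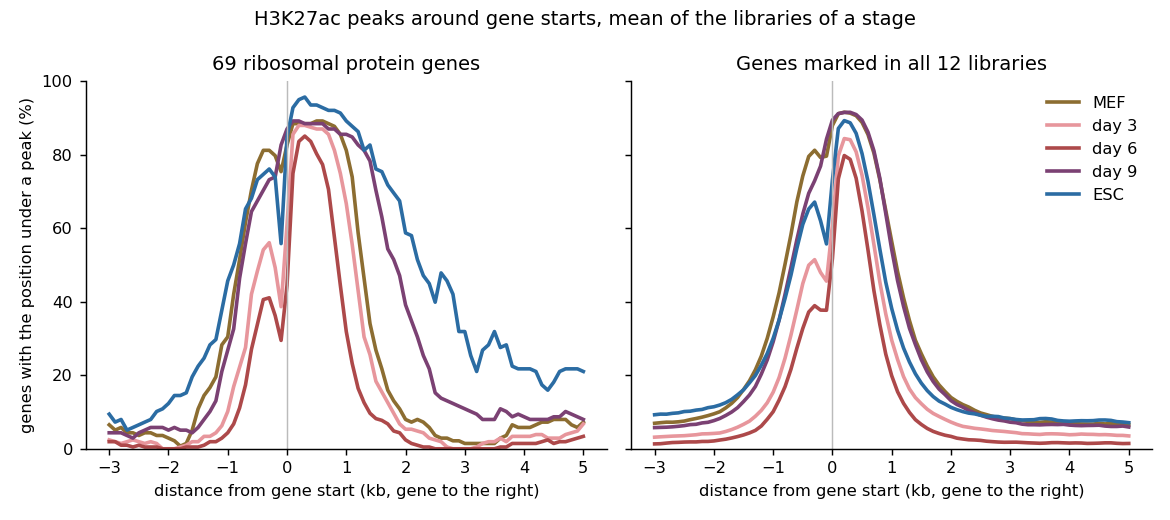
Share of genes (vertical axis, %) whose position at a given distance from the start (horizontal axis, kb, gene to the right) lay under an H3K27ac peak, as the mean of the libraries of each stage, for 69 ribosomal protein genes (left) and the genes marked in all 12 libraries (right). At 0.5 kb into the members the stage means lie between 80.2% and 93.5%; at 1 kb day 6 is at 31.9% and day 3 at 66.7%, and at 2 kb day 9 and ESC lie above the other stages.

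Ribosomal protein genes are short, with a median length of 3183 bp against 17329 bp for all genes, so this reach takes in much of the gene. The median share of a member's body under H3K27ac was 43.1% and 41.5% in MEF, 42.7%, 35.2% and 31.5% on day 3, 24.6%, 22.3% and 36.3% on day 6, 58.1% and 59.5% on day 9, and 76.5% and 73.6% in ESC. The number of members with at least 90% of the body covered was 3 and 4 in MEF, 16 and 16 on day 9, and 28 and 23 in ESC. Both measures of the body are as called and are given for the members alone. When only the 1 kb to each side of the start was measured, or of both ends of a gene where no strand was known, 23 of 86 tested members rose and 1 fell between MEF and ESC, against 14.1% and 17.5% of all genes with that window. Around known starts 10 of 66 rose and 1 fell (15.2% and 1.52%), against 13.1% and 16.7% of such genes, so the share that rose lay near the background. At the members of unknown strand 13 of 20 rose and 0 fell, against 519 and 590 of 2882 such genes. The best peak of the median member ranked at the 96.1 and 96.4 percentile of its own list in MEF and at 99.1 and 99.0 in ESC, where the median gene's best peak ranked at 90.2, 90.3, 87.6 and 87.3.

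The last step, from day 9 to ESC, asks what separates late reprogramming cells from the stem cell line. Here 47 members rose and 0 fell (limma), with a median log2 difference of 0.58, against 23.3% and 15.0% of all genes and a median of 0.05. The counts were 16 of 31 for the small subunit, 23 of 43 for the large subunit, 2 of 3 for the stalk (Rplp1 and Rplp2) and 6 of 10 for the paralogues and others. The largest differences were those of Rps23rg1, Rpl3l, whose call was lost in 11 of 24 alternatives, Rpl39l and Rpl10l, all taken up below, and of Rpl11, a large subunit protein that also binds Mdm2, with 1872 and 2021 bp on day 9 and 4048 and 5025 bp in ESC (1.30 ± 0.19, adjusted p = 0.000611). Rpl39l and Rpl10l were at 0 bp on day 9 and passed the filter only through their ESC peaks, so their calls carry no weight. Their differences depend on the bp added and ran from 0.49 to 3.12 and from 0.45 to 3.04 over the alternatives. Of the 78 members marked in all 12 libraries, 42 rose and 0 fell, against 20.4% and 17.4% of all genes so marked. Day 9 was made only in batch EA-3702 and ESC only in DG-3458; with batch in the fit, which day 3 and day 6 tie together, 28 members rose and 0 fell, against 21.9% and 11.2% of all genes. Without scaling 17 rose and 0 fell, against 17.0% and 15.6%, and with the replicate block 16 and 0, against 16.5% and 7.57%. As shares of the 87 tested members, these 2 counts of risers lie near the share of all genes. Leaving out day 9 replicate 1 or either ESC replicate left 26 risen, and leaving out day 9 replicate 2 left 29, each with 0 fallen, where 15.2% to 19.2% of all genes rose.

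The counts of the earlier steps also depended on scaling, and their direction did too. From MEF to day 3, 23 members rose and 2 fell, against 10.9% and 26.5% of all genes, with a median of 0.29 for the members and -0.18 for all genes. Without scaling, 0 members were called greater and 20 lesser, against 2.22% and 51.1% of all genes. Leaving out MEF replicate 1 cut the scaled calls to 9 risen and 0 fallen, against 5.77% and 15.8% of all genes, and leaving out MEF replicate 2 to 6 and 1, against 5.7% and 16.1%. Rps19 led the scaled calls, with 3295 and 3120 bp in MEF and 4414, 4088 and 3613 bp on day 3 (1.10 ± 0.15, adjusted p = 0.000539), and its 3 day 3 libraries lay above both MEF libraries before scaling. Rpl38, Rps7, Rpl23 and Rps14 followed at 0.82, 0.73, 0.73 and 0.67. Of these Rps7, Rpl23 and Rps14 were at -0.01, -0.04 and -0.08 without scaling. Rpl3l (-1.73 ± 0.53, adjusted p = 0.0322) and Rpl41 (-0.44 ± 0.12, adjusted p = 0.0199) fell. Of 24 alternatives, Rpl38 lost its call in 7 and Rpl3l and Rpl41 in 6 each; leaving out either MEF replicate ended all 3.

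From day 3 to day 6, 10 members rose and 8 fell, against 8.11% and 18.4% of all genes. Without scaling, 0 were called greater and 17 lesser, against 0.698% and 25.0% of all genes. Leaving out either MEF replicate cut the 18 calls to 9, with 6 risen and 3 fallen, against 6.65% and 16.8% of all genes without replicate 1 and 6.66% and 16.8% without replicate 2. MEF enters this step through the shared spread, the scaling, the filter and the adjustment. Among the 41 members with no other gene in the window, 1 rose and 4 fell. The risers with the greatest differences were Rpl18 (0.80), Rpl35a (0.76), Rpl24 (0.73), Rpl22l1 (0.70) and Rpl4 (0.65), all of the large subunit or its paralogues, and all but Rpl22l1 share their window with another gene. Rps4x, the X-linked form of a small subunit protein, fell most, with 1873, 880 and 1015 bp on day 3 and 0, 0 and 712 bp on day 6 (-2.17 ± 0.58, adjusted p = 0.0256). With values at 0, this difference depends on the bp added, and ran from -3.43 to -0.95 over the 24 alternatives. The 2 day 6 libraries without a peak at Rps4x are the 2 shortest H3K27ac lists, of 20783 and 17493 peaks; the part of list length in this value was not tested. Rps18, Rpl22, Rpl37 and Rpl35 fell by 0.65, 0.55, 0.47 and 0.46. Of 24 alternatives, Rpl35 lost its call in 15, Rpl22 in 10, Rpl37 in 8, Rps4x in 7 and Rps18 in 5; leaving out day 6 replicate 2 of DG-3458 ended all 5.

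From day 6 to day 9, 10 rose and 9 fell, against 24.2% and 8.83% of all genes. Without scaling, 84 were called greater and 0 lesser, against 75.4% and 0.0121% of all genes. With batch in the fit 4 rose and 2 fell, against 17.0% and 4.13%, and with the replicate block 1 and 0, against 10.0% and 0.790%. Leaving out day 9 replicate 1 or 2 left 2 risen and 2 fallen each time, against 14.5% and 3.2% or 13.9% and 3.11% of all genes, and leaving out day 6 replicate 2 of DG-3458 left 5 and 4, against 20.7% and 7.09%. Rps23rg1, Rps4x, Rps15a and Rpl35 rose by 3.06, 2.56, 1.32 and 0.62. Rps23rg1 is at 0 bp on day 6, so that its value depends on the bp added, and was 4.92 with 50 bp and 1.32 with 1000 bp. Of 24 alternatives, Rpl35 lost its call in 8 and Rps4x in 7, both of them with batch in the fit or without either day 9 replicate. At Rps4x the day 9 libraries had 2792 and 2638 bp, above every earlier library before and after scaling. Its rise also depends on the bp added, and ran from 1.22 to 3.86 over the 24 alternatives. Rps28, Rpl41, Rps27l, Rpl7 and Rpl36al fell by 0.59, 0.59, 0.57, 0.51 and 0.51, and each of these 5 was positive without scaling; Rps28 also lost its call in 10 of the 24 alternatives and Rps27l in 7.

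**Figure D5:**
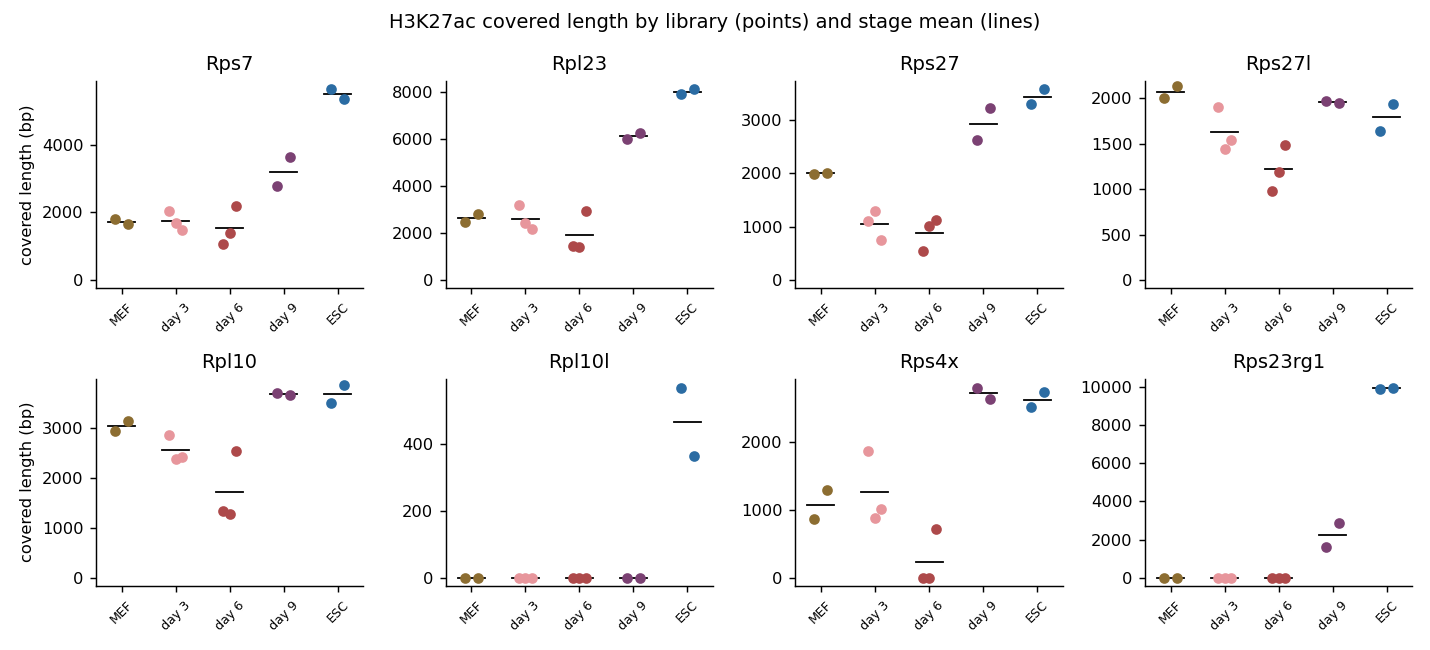
H3K27ac covered length before scaling (vertical axis, bp) in each library (points, coloured by stage) and the stage mean (lines) for 8 members. Rps7 and Rpl23 climb on day 9 and in ESC, Rps27l lies no higher in ESC than in MEF, Rpl10l has peaks in ESC alone, and Rps4x drops to 0 in 2 of 3 day 6 libraries.

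In the pairs Rps27 and Rps27l, and Rpl22 and Rpl22l1, the core gene rose from MEF to ESC and the paralogue did not pass the test. Rps27 was covered over 1995 and 2004 bp in MEF and 3294 and 3578 bp in ESC (0.98 ± 0.29, adjusted p = 0.0188), while Rps27l, a p53 target, had 2005 and 2130 bp in MEF and 1634 and 1939 bp in ESC (0.08 ± 0.18, adjusted p = 0.751). Rpl22 rose from 2429 and 2337 bp to 3817 and 3968 bp (0.93 ± 0.20, adjusted p = 0.00389), and its paralogue Rpl22l1 had 2336 and 2337 bp in MEF and 2415 and 1703 bp in ESC (0.09 ± 0.16, adjusted p = 0.683). Rpl36a had 1718 and 1536 bp in MEF and 3691 and 2758 bp in ESC (1.14 ± 0.63, adjusted p = 0.163), and Rpl36al 2035 and 2008 bp and then 2173 and 1965 bp (0.29 ± 0.16, adjusted p = 0.147). Each SE pools the spread within every stage, and Rpl36a had 218, 0 and 747 bp on day 6. In another pair it was the paralogue that rose: Rpl7 had 3243 and 3031 bp in MEF and 3074 and 3168 bp in ESC (0.27 ± 0.12, adjusted p = 0.0975), and Rpl7l1 went from 3834 and 3813 bp to 6947 and 6982 bp (1.11 ± 0.15, adjusted p = 0.000222). The difference within a pair was not tested.

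Other pairs differed in whether the copy was marked at all. Rpl10, marked in all 12 libraries, rose from 2921 and 3129 bp in MEF to 3493 and 3846 bp in ESC (0.54 ± 0.13, adjusted p = 0.00863). Rpl10l had 0 bp in the 10 libraries before ESC and 565 and 362 bp in ESC, and Rpl39l likewise 730 and 317 bp in ESC alone. Those ESC peaks covered or lay just inside the starts of both copies, ranked between the 44.3 and 65.8 percentile of their lists and had deposited folds of 4.04 to 5.12, the authors' own values. Rpl39 was marked in 11 libraries, with 2020 and 2275 bp in MEF and 4351 and 4296 bp in ESC (1.20 ± 0.94, adjusted p = 0.319). This SE takes in day 6, at 0, 490 and 1697 bp, while both ESC libraries lay above both MEF libraries before and after scaling. Rpl3 rose from 3312 and 3105 bp to 6367 and 6361 bp (1.22 ± 0.14, adjusted p = 8.96e-05).

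Rpl3l, the muscle form of Rpl3, had 2094 and 2276 bp in MEF, 409, 659 and 0 bp on day 3, none on day 6, 389 and 501 bp on day 9, and 1825 and 2249 bp in ESC. In MEF the signal was a single peak whose midpoint lay 9075 and 9114 bp from the start, at the far end of the gene beside Msrb1, whereas in ESC a peak also lay 548 and 538 bp from the Rpl3l start. Rps19bp1, which binds Rps19, had 1098 and 1141 bp in MEF and 3743 and 3742 bp in ESC (1.79 ± 0.67, adjusted p = 0.0501). The SE of Rps19bp1 takes in day 6, at 528, 0 and 405 bp.

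Rps23rg1, a retrogene of Rps23, had the greatest fitted difference from MEF to ESC of the 87 members. It had no H3K27ac peak in MEF, day 3 or day 6, 1592 and 2855 bp on day 9, and 9925 and 9944 bp in ESC, and the fitted difference from day 9 to ESC was 2.28 ± 0.19 (adjusted p = 2.18e-05). Since MEF is at 0, the fitted difference between MEF and ESC depends on the bp added, and was 7.31 with 50 bp and 3.15 with 1000 bp. No KLF4 peak was listed at it in either day 3 library, and all 8 later libraries had 1 or more. In each of those 8 a KLF4 peak lay 11561 to 11869 bp into the gene, and in the 4 ESC and ESC 2i libraries another lay 8653 to 8758 bp in. Among its day 9 H3K27ac peaks, 1 in each library lay over the first of these places, and replicate 2 also had a peak at the start. In ESC the peaks ran across the gene, with 1 over the start in both libraries. Camsap3 is the other gene in its window. The remaining genes under 6 H3K27ac libraries were Rpl37rt (390 bp in 1 MEF library, 249 and 312 bp in ESC), and Rps27rt and Rpl32l, with no peak of either kind.

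KLF4 was less regular on these genes. A KLF4 peak was found at 72 and 40 members on day 3, 69 and 38 on day 6, 44 and 44 on day 9, 38 and 56 in ESC and 53 and 51 in ESC 2i. The shares of all genes in the same libraries were 54.7% and 46.2% on day 3, 52.5% and 43.9% on day 6, 46.6% and 49.2% on day 9, 42.6% and 55.4% in ESC and 51.5% and 53.6% in ESC 2i. On day 3 and day 6 the higher value was that of batch EA-3702 and the lower that of DG-4040. Within EA-3702 the members' share was 80.9% on day 3, 77.5% on day 6, 49.4% and 49.4% on day 9 and 59.6% in 2i, beside all-gene shares of 54.7%, 52.5%, 46.6%, 49.2% and 51.5%. A peak in every library of the stage was found at 37 members on day 3 (41.6% of all genes), 38 on day 6 (39.7%), 34 on day 9 (43.1%), 36 in ESC (40.5%) and 39 in ESC 2i (44.0%), which as shares of 89 run from 38.2% to 43.8% and lie near the background.

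All 10 KLF4 libraries had a peak at 13 members, 14.6%, against 23.5% of all genes. They included Rps3a1, Rps15, Rps19 and Rps20 of the small subunit and Rpl10, Rpl12, Rpl18, Rpl23, Rpl23a, Rpl35a and Rpl41 of the large. A peak lay within 1 kb of the member's own start, or of either end where the strand is unknown, in all 10 libraries for 9 of them. For 4 of these 9, Rpl12, Rps15, Rpl23 and Rpl41, a peak also lay within 1 kb of a neighbour's start, in 10, 9, 9 and 7 libraries. For Rpl23a, whose strand is unknown, it lay near its neighbour Tlcd1 in all 10 and within 1 kb of neither end of Rpl23a; for Rpl18 and Rpl35a a neighbour's start was near in all 10, their own in 6 and 4; and for Rps3a1, which has no neighbour in the window, the own start was near in 5. Among the 13, the highest mean ranks within the lists were those of Rps19, then Rpl18 at the 87.2 percentile, Rpl23 at 84.9, Rps15 at 78.6, Rpl41 at 76.7 and Rps3a1 at 74.8. No KLF4 peak at all was found at 8 members, 8.99%, against 26.3% of all genes, the core genes Rpl9, Rpl28, Rps27 and Rps4x among these members.

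Rps19 was covered by KLF4 over 1327 and 794 bp on day 3, 906 and 1059 bp on day 6, 757 and 875 bp on day 9, 585 and 703 bp in ESC and 731 and 1175 bp in ESC 2i. Before scaling, both ESC libraries lay below all others. After scaling they were at 1034 and 684 bp, above and below the day 9 libraries at 772 and 807 bp, so this order did not hold. Rpl10 had 863 and 555, 631 and 429, 397 and 472, 168 and 160, and 488 and 581 bp in the same order, with ESC lowest before and after scaling. Of the 9 members with KLF4 in all 10 libraries and a promoter window, 3 held the KLF letters and 8 the SP letters; of the 22 with KLF4 in 3 libraries or fewer, 6 and 7 did.

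Of the KLF4 peaks whose midpoint lay within 1 kb of a member's start, 54.2% to 100.0% lay upstream of it in the 10 libraries, and the median midpoint was at -133.5 to -6.5 bp. Of the 69 members with a start, 26 and 28 had a KLF4 midpoint within 1 kb of it on day 9, at a median of -79 and -104.5 bp, and 26 of 26 and 25 of 28 were upstream; for all genes the medians were -59 and -53 bp. The H3K27ac midpoints of the members lay downstream instead, at medians of 175 and 212 bp in MEF, 508 and 528 bp on day 9, and 408 and 282 bp in ESC. Those of all genes with a start lay downstream too, at 133 and 127 bp, 186 and 188 bp, and 173.5 and 189 bp. In the first 2.5 kb downstream KLF4 covered on average 147.0 and 43.7 bp of the members on day 3, 107.5 and 20.6 bp on day 6, 26.7 and 30.6 bp on day 9, 15.8 and 67.1 bp in ESC and 63.5 and 51.7 bp in 2i, with the EA-3702 library first on day 3, day 6 and in 2i. In the 2.5 kb upstream it covered 219.2 and 53.1 bp on day 3, 182.7 and 96.9 bp on day 6, 106.4 and 122.8 bp on day 9, 50.4 and 98.4 bp in ESC and 151.1 and 106.8 bp in 2i. Set against the genes marked by H3K27ac in all 12 libraries, the members were lower in both stretches in 10 of 10 libraries. Set against all genes with a start, they were lower in 8 of 10 libraries downstream and in 1 of 10 upstream. Between 2.5 and 5 kb downstream the members' stage means were 41.5, 27.1, 15.2, 30.9 and 40.0 bp from day 3 to 2i. All genes with a start had 18.2, 12.9, 13.9, 11.2 and 14.5 bp there. The genes marked by H3K27ac in all 12 libraries had 29.6, 20.6, 21.8, 15.6 and 19.4 bp. In that stretch the members lay above both sets, except on day 9, when they lay under the latter. These differences were not tested.

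Between stages the fit called few KLF4 differences. From day 6 to day 9, from day 3 to day 6 and from ESC to ESC 2i, 0 of 77 tested members changed by limma, and the share of all 14425 genes called in either direction was 0% in each. At an unadjusted p under 0.05 there was 1 member with a positive and 3 with a negative difference from day 3 to day 6, against 4.02% and 6.27% of all genes. From day 6 to day 9 there were 2 and 4, against 4.62% and 3.99%, and from ESC to ESC 2i 2 and 1, against 6.32% and 4.53%. These numbers lie near or under the background. From day 9 to ESC, 1 rose and 2 fell, against 2.97% and 3.31% of all genes. Rpl13, of the large subunit, had 919 and 556 bp of KLF4 on day 3, 665 and 349 bp on day 6, 548 and 527 bp on day 9, and 0 in all 4 ESC and ESC 2i libraries (-1.85 ± 0.26, limma adjusted p = 0.0145). Its day 9 peaks lay 1809 and 1799 bp upstream of the start. Rpl39 had 188 and 334 bp on day 9 and 0 in ESC (-1.16 ± 0.26, adjusted p = 0.0406), and Rplp1 0 on day 9 and 111 and 249 bp in ESC (1.07 ± 0.24, adjusted p = 0.0405); both were 0 in 2i, and Rplp1 had 476 and 263 bp on day 3. Since 1 stage is at 0 for each of the 3, these differences depend on the bp added: with 50 bp they were -3.51, -2.56 and 2.42 for Rpl13, Rpl39 and Rplp1, and with 1000 bp -0.61, -0.32 and 0.29. Leaving out either day 9 library or the ESC library of batch EA-2697 ended all 3 calls, and leaving out the ESC library of EA-2643 left 1. For this comparison, a simulation on the 5094 genes with KLF4 in all 10 libraries recovered 7 of 100 changes of 2-fold and 92 of 100 of 8-fold. Only 13 of the 77 tested members are among those genes and none of the 3 called, so it says nothing of genes with 0 bp in a stage.

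The rest of the translation machinery gives the setting for the ESC and MEF comparison of H3K27ac. Fau (0.65 ± 0.14, limma adjusted p = 0.00407), which codes for a ribosomal protein fused to a ubiquitin-like one, rose, and Rack1, a scaffold on the small subunit, was at 0.58 ± 0.23 (adjusted p = 0.0583). Of 78 mitochondrial ribosomal protein genes 18 rose and 4 fell, which is 23.1% and 5.13% beside the 26.2% and 27.5% of all genes, with a median of 0.22. Of 33 initiation and elongation factors 13 rose and 4 fell (39.4% and 12.1%), with a median of 0.23, and of 28 ribosome assembly factors 13 rose and 1 fell (46.4% and 3.57%), with a median of 0.52. These stand beside 66 and 0 of 87 and a median of 0.97 for the cytosolic ribosomal protein genes, and the differences between the lists were not tested. From day 9 to ESC the mitochondrial genes had 8 risen and 4 fallen, the factors 7 and 2, and the assembly genes 7 and 3. As shares risen these are 10.3%, 21.2% and 25.0%, beside the 23.3% of all genes.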

How the data were processed

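ChIP-seq for H3K27ac (12 libraries) and KLF4 (10 libraries) was analysed from 1 deposited peak list per library; the 13 input libraries were not analysed here. Per the submitters' processing notes, build mm10 and cutadapt 1.8.1, Bowtie2 2.2.5, deepTools 2.3.6 and MACS2 2.1.1 were used, with settings not given in the sources used here. The authors' lists hold, for each peak, a score, a fold (ratio), a −log10 p-value and a −log10 q-value. They hold no read counts, so depth and signal strength are unknown and a gene without a peak is not a gene without signal. Replicate lists shared at most 15 identical intervals.

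Covered length was summed over each RefSeq gene (GRCm38.p6) with 2.5 kb to each side, divided by a factor per library (its median over genes marked in every library of the mark), and tested as log2(bp + 200) with limma 3.58.1 (R 4.3.3) over all genes with a peak in at least 2 libraries, with Benjamini-Hochberg adjustment and stage as the only term. The fit was tested on simulated data for the 8960 genes marked in all 12 libraries: 45 of 100 changes of 2-fold and 100 of 100 of 8-fold were recovered for H3K27ac, ESC against MEF. Covered length measures the reach of called peaks, and peaks of neighbouring genes enter the same windows. Genes named were, per contrast, up to 5 in each direction with the greatest difference at adjusted p under 0.05, with stalk genes, Rpsa, paralogue pairs, Rps19bp1, Rpl7l1, and members with H3K27ac in fewer than 6 libraries. Named too were the 6 members of highest mean rank among the 13 with a KLF4 peak in all 10 libraries. Some genes that this rule names are not reported here. The members and lists were chosen with earlier results of these data known. Alternatives covered scaling, pseudocount, filter, peak threshold, overlap, window, batch, replicate number and each library left out.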

Additional observations from a re-analysis of the deposited data

How the results depend on the processing

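The greater reach of H3K27ac over the members in ESC than in MEF kept its direction and remained within 1.5 times of 66 members in all but 2 of the alternatives run: no scaling gave 37 (19.0% of all genes greater) and the window of 1 kb around the start gave 24 (23 greater and 1 lesser; 14.1% and 17.5%); leaving out single libraries gave 57 to 70. From day 9 to ESC, 47 members (23.3% of all genes greater) became 17 without scaling (17.0%), 26 with equal numbers of peaks (13.9%), 27 with the top 50% of each list (19.6%), 15 in the 1 kb window (10.2%) and 28 with batch in the fit (21.9%); leaving out single libraries gave 26 to 48, with 26 and 29 without day 9 replicate 1 or 2 (18.6% and 19.2%) and 26 without either ESC replicate (15.5% and 15.2%). All calls of that comparison under these settings were greater.

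The earlier H3K27ac steps did not keep their direction. Brackets give the shares of all genes greater and lesser. For day 3 against MEF, 25 calls became 20, all lesser, without scaling (2.22%, 51.1%), 15 with equal peaks (8.99%, 17.3%) and 16 in the 1 kb window (6.61%, 15.5%); leaving out single libraries gave 7 to 29 (5.7% to 12.9%, 15.8% to 28.4%), with 9 and 7 without MEF replicate 1 or 2. For day 6 against day 3, 18 (8.11%, 18.4%) became 17, all lesser, without scaling (0.698%, 25.0%), and the balance also turned with equal peaks (10; 5.77%, 9.61%), a peak in 50% of the libraries (13; 9.73%, 23.3%), a q-value of at most 0.01 (15; 6.37%, 16.5%) and the top 50% (13; 5.58%, 15.9%); the 1 kb window gave 8 (5.51%, 9.71%). More genes were lesser than greater in each of these fits, the one reported included. Leaving out single libraries gave 9 to 23 (5.95% to 10.0%, 15.7% to 21.9%), with 9 without either MEF replicate, 11 without day 3 of EA-3702, without day 3 replicate 1 of DG-3458 or without day 6 replicate 1 of DG-3458, and 10 without day 6 replicate 2. For day 9 against day 6, 19 became 84, all greater, without scaling (75.4%, 0.0121%), 4 with equal peaks (8.87%, 1.91%), 12 with a peak in 50% of the libraries (25.1%, 9.55%), 11 with the q-value limit (26.2%, 7.68%), 10 with the top 50% (24.3%, 5.9%) and 6 with batch in the fit (17.0%, 4.13%), and the balance turned with a pseudocount of 50 bp (17; 21.8%, 8.24%), of 1000 bp (21; 26.6%, 9.53%) and in the 1 kb window (19; 16.7%, 8.8%). Leaving out single libraries gave 4 to 25 (13.9% to 29.4%, 3.11% to 10.5%): 4 without either day 9 replicate, 12 and 9 without day 6 replicate 1 or 2 of DG-3458, and 25, with 12 greater and 13 lesser, without day 6 of EA-3702. The causes were not tested.

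The KLF4 counts were 0 to 4 members under every alternative run. Day 6 against day 3 had 4 with a pseudocount of 50 bp (0.679%, 1.21%) and 2 with no filter (0.18%, 0.504%), and day 9 against day 6 had 1 (0.825%, 0.776%) and 1 (0.384%, 0.166%). ESC 2i against ESC had 1 with equal peaks (0.406%, 0.301%) and 2 each with a pseudocount of 50 bp (1.21%, 0.984%), no filter (0.647%, 0.398%) or the top 50% (1.71%, 1.1%). ESC against day 9 (2.97%, 3.31%) went from 3 to 0 without scaling (0%, 0.0208%) and in the 1 kb window (0.553%, 0.335%), to 1 with a pseudocount of 1000 bp (2.45%, 3.42%) or a peak in 50% of the libraries (2.15%, 3.05%), and to 1 in the opposite direction with the q-value limit (1.07%, 1.69%) or the top 50% (3.6%, 3.14%); leaving out single libraries gave 0 to 3 (0 without either day 9 replicate or ESC EA-2697, 1 without ESC EA-2643). Leaving out a library gave 0 to 0 for the other 3 KLF4 comparisons.

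The number of members with H3K27ac in every library of a stage moved by less than 1.5 times under each alternative. For KLF4, with the share of all genes in brackets, day 3 went from 37 (41.6%) to 17 with the q-value limit (26.1%), 16 with the top 50% (26.0%), 21 with equal peaks (32.7%) and 72 without the DG-4040 replicate (54.7%), with a range of 40 to 72 when single libraries were left out. Day 6 went from 38 (39.7%) to 18 with the top 50% (23.0%) and 25 in the 1 kb window (25.7%), and to 38 to 69 (69 without DG-4040, 52.5%). Day 9 went from 34 (43.1%) to 21 and 14 with the q-value limit and the top 50% (33.2% and 26.8%), ESC from 36 (40.5%) to 22 and 22 (22.8% and 24.4%), with 38 to 56 on leaving out a library (56 without EA-2697, 55.4%), and 2i from 39 (44.0%) to 24 and 24 (25.4% and 26.9%). All-gene shares moved the same way under each of these settings.

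The replicate number was tested as a replicate block with batch. Same-numbered libraries of batch DG-3458 did not deviate together (correlations of -0.009 to 0.025 over 6 pairs of stages). This gave no sign that the numbers pair the samples, but a pairing of small effect would not show. Numbers follow the sample titles; the peak names inside the 2 day 6 lists of DG-3458 carry them exchanged, which bears on the block and on which of these 2 libraries a value without replicate 1 or 2 leaves out. The block gave 64 members for ESC against MEF, 21 for day 3 against MEF, 13 for day 6 against day 3, 1 for day 9 against day 6, 16 for ESC against day 9, and 0 for the first 2 KLF4 steps. Batch and block could not be fitted for KLF4 in ESC and 2i.

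Of the 928 values that alternatives gave for members named by contrast, 739 kept direction and call, 180 lost the call and 9 reversed. Without scaling, Rps7, Rpl23 and Rps14 (day 3 against MEF) were at -0.01, -0.04 and -0.08, and Rps28, Rpl41, Rps27l, Rpl7 and Rpl36al (day 9 against day 6) at 0.64, 0.64, 0.62, 0.73 and 0.68. In the 1 kb window Rps15a (day 9 against day 6) was at -0.16.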
